A study of Rattus norvegicus with 18 samples.

Results

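The 6 libraries described here, of 18 in the study, are those of phenylephrine-treated cells infected with the control adenovirus of the sORF6 experiment (3 libraries) or of the sORF7 experiment (3 libraries). They were chosen by their labels, not by any measured value. The cells were neonatal rat ventricular cardiomyocytes, primary muscle cells from Sprague-Dawley rats at postnatal day 2. Freshly isolated cells had been left to settle for 1 h so that quickly attaching non-muscle cells could be discarded. The remaining cells grew on gelatin in high-glucose medium with fetal bovine serum. All 18 libraries, these 6 included, came from cells given phenylephrine (PE), an agonist of alpha-1 adrenergic receptors, at 20 µM for 24 h. The other 12 libraries are 3 each of cells infected with adenovirus carrying 1 of the short open reading frames sORF6, sORF7 and sORF8, and 3 of the sORF8 control virus. No library here is from cells without PE or without virus, so the levels below describe stimulated, infected cells and not resting ones. Whether the control viruses were 1 virus, what they carried, and whether replicate libraries stem from different cultures is not in the labels, so the spread between libraries may be technical.

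PE acts through alpha-1 adrenergic receptors that couple to Gq, phospholipase C and protein kinase C, and it is a standard way to induce hypertrophic growth of cultured cardiomyocytes. Such growth is known for more sarcomeric protein and for the re-use of fetal genes, among them those of natriuretic peptides, skeletal alpha actin and beta myosin heavy chain. Around birth the rat ventricle exchanges fetal for adult members of many gene families: slow skeletal troponin I gives way to cardiac troponin I, and beta to alpha myosin heavy chain. The ratio of 2 related genes in a culture is therefore a common description of its state.

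Promoters of 4 genes are shown: the striated-muscle actins Actc1 and Acta1 and the natriuretic peptide genes Nppa and Nppb. All 4 are among the 25 most abundant genes, at ranks 1, 19, 3 and 15 in this order. Each sequence is the RefSeq window of 300 bases, from 250 before to 50 after the annotated start on GRCr8, written 5′ to 3′ on the gene's strand. Capitals mark, on either strand, TATAAA (the TATA box), the CArG box bound by serum response factor, CATTCC (bound by TEAD factors), AGATAA (bound by GATA factors) and the MEF2 site; no marked stretches overlap.
Actc1, chr3:121271778-121272077, minus strand: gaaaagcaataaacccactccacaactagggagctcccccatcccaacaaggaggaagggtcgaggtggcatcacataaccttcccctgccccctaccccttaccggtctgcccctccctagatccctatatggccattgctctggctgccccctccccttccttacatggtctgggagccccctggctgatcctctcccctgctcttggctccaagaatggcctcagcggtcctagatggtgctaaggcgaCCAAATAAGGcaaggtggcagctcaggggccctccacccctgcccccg
Acta1, chr19:68784145-68784444, minus strand: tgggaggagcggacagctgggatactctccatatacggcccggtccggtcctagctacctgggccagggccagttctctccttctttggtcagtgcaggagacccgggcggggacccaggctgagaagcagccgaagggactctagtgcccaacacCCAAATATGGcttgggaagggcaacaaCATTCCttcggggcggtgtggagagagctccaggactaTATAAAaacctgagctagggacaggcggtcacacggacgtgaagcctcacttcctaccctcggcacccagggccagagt
Nppa, chr5:163711934-163712233, plus strand: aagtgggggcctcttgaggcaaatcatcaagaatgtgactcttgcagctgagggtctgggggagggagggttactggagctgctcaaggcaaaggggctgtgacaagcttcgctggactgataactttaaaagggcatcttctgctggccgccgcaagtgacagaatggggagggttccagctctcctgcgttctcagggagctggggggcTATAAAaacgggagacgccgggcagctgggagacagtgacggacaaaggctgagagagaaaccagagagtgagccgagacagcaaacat
Nppb, chr5:163699758-163700057, plus strand: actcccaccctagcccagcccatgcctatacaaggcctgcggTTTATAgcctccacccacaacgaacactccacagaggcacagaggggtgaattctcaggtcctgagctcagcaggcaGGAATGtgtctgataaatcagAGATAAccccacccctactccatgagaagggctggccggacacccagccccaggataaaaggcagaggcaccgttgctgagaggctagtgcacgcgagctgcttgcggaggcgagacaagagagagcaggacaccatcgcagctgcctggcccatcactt

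In Acta1 and Nppa, TATAAA lies on the gene's own strand, beginning 29 and 39 bases before the annotated start. The Nppb match is on the opposite strand and begins 208 bases before the start. Actc1 has no TATAAA here, and its CArG match begins 2 bases after the annotated start. TATAAA on either strand occurs in 14.3% of 27457 rat promoters of this length, and the CArG box in 1.64%. Among the 9714 matched genes with a mean of at least 1 FPKM in these libraries, the shares were 6.72% and 1.33%. Of the 100 most abundant genes 78 had a promoter in the table, and of these 21.8% held TATAAA and 7.69% the CArG box. TATAAA on the gene's strand within 45 to 15 bases before the start was present in 1.24% of the expressed genes and in 12.8% of those 78. CATTCC occurred in 13.9% of all promoters, 11.2% of the expressed genes and 16.7% of the 78. AGATAA occurred in 11.3%, 5.75% and 8.97% in the same order, so the 78 lay below all promoters. The MEF2 site was in 0.605%, 0.381% and 2.56%, the last being 2 promoters. A match is a string of letters and not a shown binding site.

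The libraries were of even depth, with 17299568 to 17658137 estimated counts over 19880 genes of messenger RNA. Levels are in FPKM, the authors' read density per kilobase of transcript and per unit of sequencing depth, which allows genes to be compared within a library. The libraries differed along 1 axis that touches many of the values below. The second sORF6 control library and sORF7 control libraries 2 and 3 had FPKM totals of 503314 to 510597, and the other 3 had 479306 to 486768. In the same order, the mean effective transcript length, weighted by FPKM, was 1953 to 1986 nucleotides against 2054 to 2085. Short genes (under 1000 nucleotides) lay above, and long genes (over 4000) below, the mean of the other libraries in the first 3, with median differences of 0.06 to 0.10 and -0.07 to -0.04 on the log2 scale. The reverse held in the other 3, at -0.10 to -0.04 for short genes and 0.05 to 0.08 for long ones. Both sets of 3 mix the sORF6 and sORF7 controls, and what lies behind the split was not tested. Replicates of a group differed beyond sampling noise, with chi-square per degree of freedom of 3.83 to 11.4, so no library was counted with another.

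Markers of the labelled cell type were abundant. All 8 cardiomyocyte markers, from Tnnt2 at 4132 ± 253 FPKM (SD, n = 6) to Ryr2 at 65.1 ± 10.3, exceeded 10 FPKM in the mean. Together they made up 2.00 to 2.21% of the FPKM total. Marker lists of other cell types took smaller shares, as given further on.

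Transcript abundance was concentrated in few genes. On average 3.09% of the FPKM total belonged to 1 gene, 9.79% to the top 10, 27.4% to the top 100 and 62.8% to the top 1000. Of the 19880 genes, 12318 had a mean of at least 1 FPKM, 6700 at least 10, 800 at least 100 and 42 at least 1000, while 879 were listed at 0 in all 6 libraries. The ranking was stable: 21 genes were among the top 25 of every library, and 29 genes entered the top 25 of any.

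Actc1, cardiac alpha actin, the main actin of the heart's thin filament (gene 29275, chromosome 3, 105507397 to 105512939, Rnor_6.0), was the most abundant gene in each library. Its level was 15190.4, 16689 and 13587 FPKM in the sORF6 control libraries and 14730.4, 15789.6 and 15747 FPKM in the sORF7 control libraries. The groups overlapped, and the lowest and highest of the 6 values were both in the sORF6 control. Next came Tpm1, alpha-tropomyosin, which winds along actin (chromosome 8, 72814737 to 72841496), at 5381 ± 209 FPKM, and Nppa, the gene of atrial natriuretic peptide (chromosome 5, 164808407 to 164809716). Nppa stood at 5019, 5898 and 5079 FPKM in the sORF6 control and at 4444, 4991 and 5065 FPKM in the sORF7 control. Tpm1 and Nppa exchanged ranks 2 and 3 between libraries and did not differ beyond their spread. Ankrd1, a stress-responsive protein that binds titin (chromosome 1, 254726985 to 254753808), took rank 4 in every library at 4509 ± 269 FPKM. Troponin T (Tnnt2, 4132 ± 253) was always at rank 5, the ventricular essential light chain Myl3 (3491 ± 271) at rank 6, the translation elongation factor Eef1a1 (3264 ± 93.4) at rank 7 and troponin C (Tnnc1, 2755 ± 212) at rank 8.

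From rank 9 on, neighbours overlapped. Myl2, the ventricular regulatory light chain, had 2433 ± 213 FPKM and Myh7, beta myosin heavy chain, 2084 ± 202, each at rank 9 in some library. The rest of the 25 mixed muscle and housekeeping functions, from the small heat shock protein Cryab at 2010.0 ± 154 and the glycolytic enzyme Gapdh at 1919 ± 116 to the muscle LIM protein Csrp3 at 1228 ± 83.5. Cox6a2, the muscle form of a cytochrome c oxidase subunit, stood at 1902 ± 184 and the ATP synthase subunit Atp5f1b at 1622 ± 66.3. Nppb, the gene of brain natriuretic peptide, had 1733 ± 155, skeletal alpha actin (Acta1) 1388 ± 97.4 and cardiac troponin I (Tnni3) 1252 ± 101. Sparc, a collagen-binding matrix protein, had 1664 ± 33.4 FPKM, and Tpt1, Ppia, Rps2, Rplp0, Rps6 and the ubiquitin locus LOC100360645 completed the list.

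**Figure D1:**
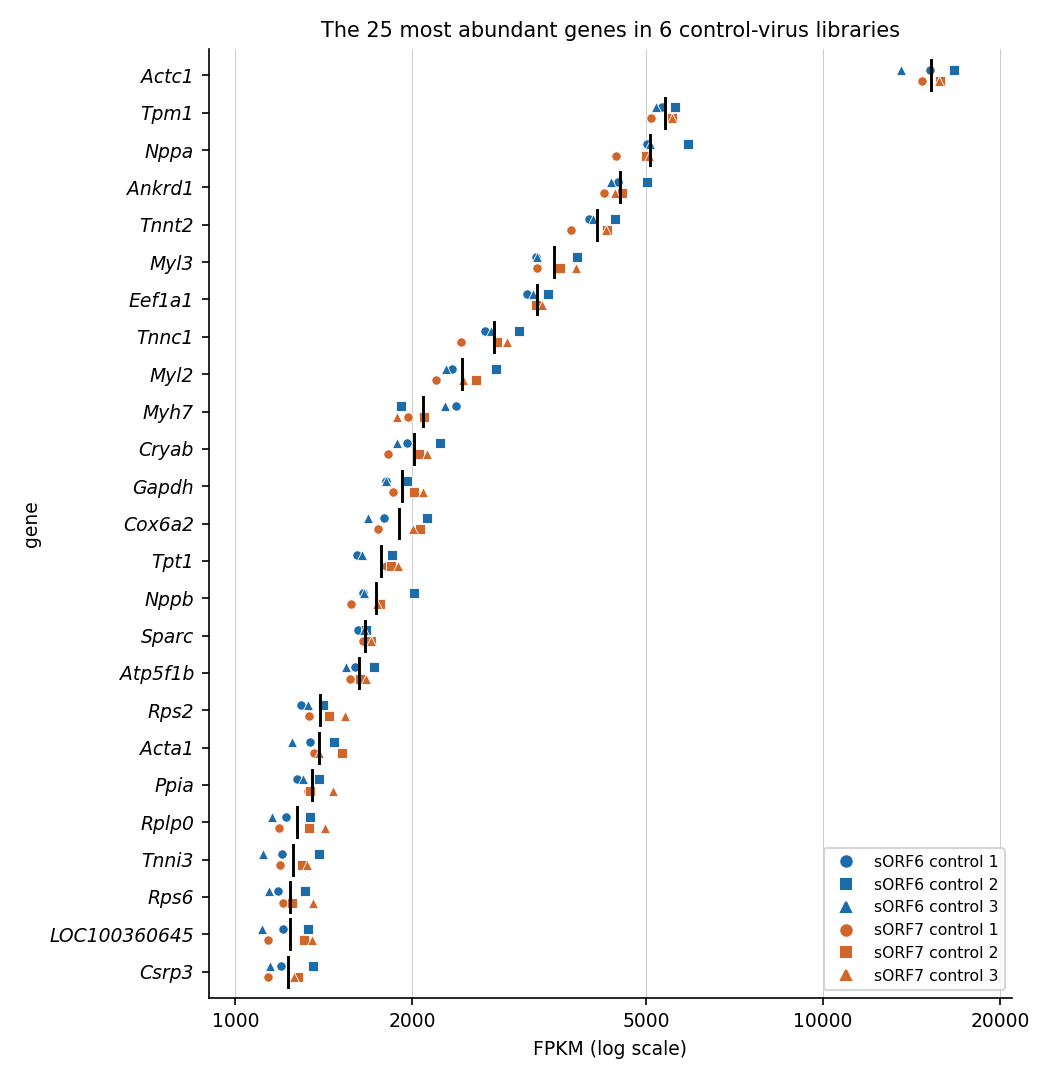
FPKM (log axis) of the 25 most abundant genes in each of the 6 control-virus libraries, with symbols for libraries, colours for the control groups and black bars for the mean over 6. Actc1 lies between 13587 and 16689 FPKM in every library, far above Tpm1 at 5093 to 5609, and in 22 of the 25 genes both squares and the orange triangle, the 3 libraries with short mean length, lie above the other 3.

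Because FPKM divides by length, long genes take a larger part of the reads than of the FPKM total. By estimated counts Actc1 still led, with 2.26% of all counts, and Myh7 came second with 1.26%. Titin (Ttn), the giant spring of the sarcomere with an effective length of 105824 nucleotides, held 0.558% of the counts, rank 7 of all genes, although its level of 52.7 ± 12.1 FPKM was only rank 1620. Col1a1 and Fn1, long matrix genes, were likewise in the top 15 by counts. Of the 100 most abundant genes by FPKM, 58 had an effective length under 1000 nucleotides, against 9.83% of all genes with at least 1 FPKM. By the table's own pathway annotation, those 100 genes held 35 of the ribosome, 14 of cardiac muscle contraction and 8 of oxidative phosphorylation, pathways that take in 1.48%, 0.471% and 0.966% of the expressed genes.

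The contractile apparatus, as 70 genes of the thin filament, the thick filament and the Z-disc, titin and M-band lists, made up 11.5 ± 0.322% of the FPKM total (SD, n = 6). By library it was 11.7, 11.96 and 11.3% in the sORF6 control and 11.1, 11.7 and 11.4% in the sORF7 control, so that the groups overlapped. Only 5 genes gave 57.5% of it. The thin filament, on which calcium acts through the troponins, took 6.51 ± 0.217%, led by Actc1, Tpm1, Tnnt2 and Tnnc1. The thick filament of myosin took 2.02 ± 0.0675%, led by Myl3, Myl2, Myh7 and Myh6. Z-disc, titin and M-band genes, which anchor and align the filaments, took 2.99 ± 0.0789%. After Ankrd1, Cryab and Csrp3 this list held Fhl1 (1076 ± 37.5 FPKM), a LIM protein of the sarcomere, and Actn2, the alpha-actinin of the Z-disc, at 1049 ± 27.4. Myosin-binding protein C (Mybpc3), which regulates cross-bridges, stood at 366 ± 13.2.

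The longest genes followed the length axis. Ttn was 68.5, 44.4 and 64.9 FPKM in the sORF6 control and 55.5, 41.3 and 41.7 in the sORF7 control, lowest in the 3 libraries with the short mean length. Ryr2, the calcium release channel of the sarcoplasmic reticulum with an effective length of 16389 nucleotides, was lowest in the same 3 libraries, with 78.7, 57.7 and 74.7 FPKM against 66.9, 60.5 and 51.9. Their coefficients of variation (CV, the SD over 6 libraries as a percent of the mean) were 22.9% and 15.9%, against 6.95% for Actc1.

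The natriuretic peptide and growth marker list, genes that hypertrophic stimuli are known to raise, took 3.06 ± 0.152% of the FPKM total. Nppa, Ankrd1, Myh7 and Nppb led it, followed by Acta1. Rcan1, an inhibitor of calcineurin that calcineurin signalling itself induces, had 168 ± 6.40 FPKM, and Gdf15, a stress-induced cytokine, 34.5 ± 3.29. Nppc, the gene of C-type natriuretic peptide, was at 0.393 ± 0.226 FPKM. Nppb stood at 1650.2, 2017 and 1652 FPKM in the sORF6 control and at 1574, 1761 and 1742 in the sORF7 control. Nppa was 2.93 ± 0.104 times Nppb, with a share of the pair of 73.8 to 75.5%. The CVs of the genes were 9.17% and 8.94%, and that of their ratio was 3.55%. Both genes were highest in the second sORF6 control library and lowest in the first sORF7 control library.

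Calcium cycling genes, which release and take up the calcium of each beat, made up 0.654 ± 0.0209%. Atp2a2, the pump of the sarcoplasmic reticulum, at 607 ± 25.7 FPKM, and its inhibitor phospholamban, Pln, at 606 ± 31.5, were at near-equal levels. Calsequestrin 2 (Casq2, 499 ± 13.3), which stores calcium, and sarcalumenin (Srl, 273 ± 4.92) followed. Sarcolipin (Sln), the atrial and skeletal counterpart of phospholamban, was at 1.06 to 2.37 FPKM, so Pln held 99.7 ± 0.0854% of the pair. Of the excitation and coupling list, 0.348 ± 0.0105% of the total, the sodium pump subunit Atp1b1 (441 ± 13.6) led, and N-cadherin (Cdh2, 284 ± 10.1) and the desmosomal Pkp2 (148 ± 4.57) were among the leading members. The gap junction gene Gja1, connexin 43, had 123.3 ± 4.82 FPKM.

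Energy metabolism made up the next block. Nuclear-encoded genes of the respiratory chain and ATP synthase, 86 in the table, took 5.09 ± 0.199%, and all 199 genes of the mitochondrial lists together 6.67 ± 0.216%, or 3.24% of the counts. By library the latter share was 6.49, 6.95 and 6.41% in the sORF6 control and 6.54, 6.79 and 6.82% in the sORF7 control, higher in the 3 libraries with the short mean length. Genes of the mitochondrial chromosome were not analysed here, so this is the nuclear part only. The list was led by Cox6a2, Atp5f1b, Atp5f1a (851 ± 21.5 FPKM) and Cox4i1 (847 ± 69.6). Tricarboxylic acid cycle genes took 0.638 ± 0.00659%, with malate dehydrogenase Mdh2 (536 ± 34.7) on top and Pdha1 and Idh2 among the leading members. Mitochondrial ribosomal proteins took 0.537 ± 0.0158%, with Mrpl17 (139 ± 9.50) highest.

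Glycolysis genes held 1.36 ± 0.0270% of the total and fatty acid oxidation genes 0.409 ± 0.00745%. Gapdh, Aldoa (1046 ± 56.9 FPKM), Ldha (734 ± 25.8) and Eno1 (591 ± 26.8) led the first. Fabp3, the heart's fatty acid binding protein (606 ± 47.5), led the second, followed at a distance by the beta-oxidation genes Hadhb (173 ± 4.05), Acadl (145 ± 3.72) and Hadha (130 ± 2.75). In the phosphotransfer and oxygen store list, 0.500 ± 0.0138%, the adenine nucleotide carrier Slc25a4 (775 ± 53.7) and Slc25a5 (393 ± 20.1) stood above the pores Vdac3 and Vdac1. Muscle creatine kinase (Ckm) had 201 ± 17.4 FPKM and myoglobin (Mb), the oxygen store of muscle, 124 ± 11.4. Ckmt2, the mitochondrial creatine kinase of adult muscle, was at 3.15 ± 0.867.

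The largest single share among the lists in FPKM was that of the cytosolic ribosomal proteins, 91 genes with 10.5 ± 0.385% of the total, led by Rps2, Rplp0, Rps6 and Rps24 (1179 ± 85.2 FPKM). It ranged from 10.05% in the first sORF6 control library to 11.0% in the third sORF7 control library. These genes are short, and in the estimated counts they held 3.31%, below the thin filament (4.04%), the matrix (3.86%) and the Z-disc, titin and M-band list (3.54%). Since many have processed copies, values of single members are uncertain. Cell cycle genes, by contrast, took 0.124 ± 0.00622%: of 29 genes, 18 had at least 10 FPKM and 0 reached 100. The replication genes Rrm1 (88.6 ± 3.62), Pcna (74.3 ± 4.19), Rrm2 (46.0 ± 2.85) and Mcm4 (42.2 ± 2.19) led, while the proliferation marker Mki67 had 14.6 ± 2.94 FPKM.

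**Figure D2:**
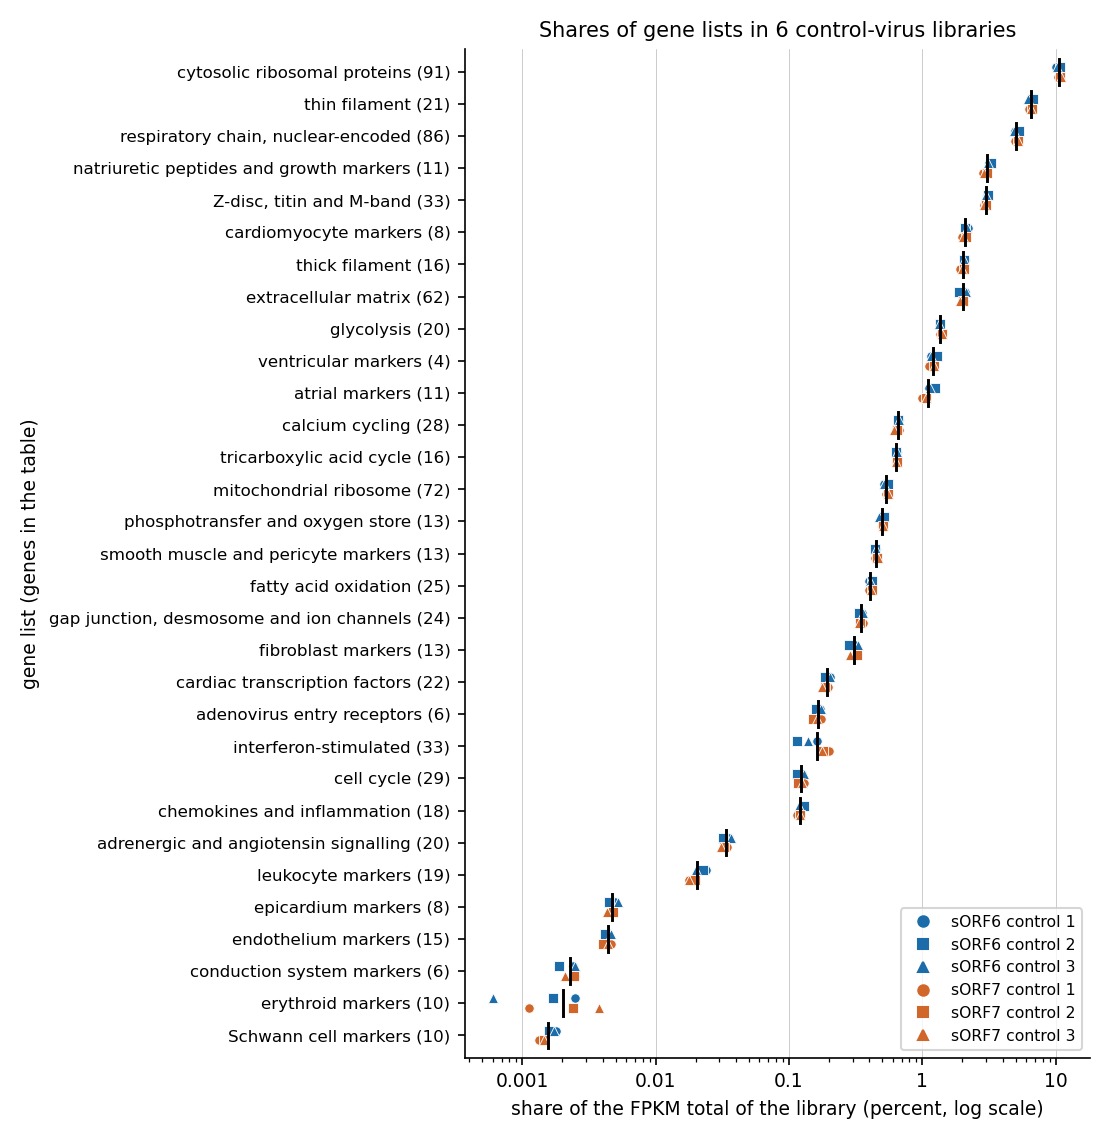
Share of each gene list in the FPKM total (percent, log axis) for each of the 6 control-virus libraries, with the number of genes of the list in the table in brackets and black bars for the mean over 6. Ribosomal proteins (10.5%) and the thin filament (6.51%) lead, markers of endothelium, epicardium and Schwann cells lie below 0.01%, and the interferon-stimulated list spreads from 0.115 to 0.199%.

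Matrix genes were well represented in these cells. The 62 genes of the extracellular matrix list took 2.01 ± 0.0847% of the total, near that of the thick filament, and 3.86% of the counts. Sparc led, followed by Col1a1, the alpha-1 chain of type I collagen (chromosome 10, 82745801 to 82762790), at 877, 827 and 946 FPKM in the sORF6 control and 930.2, 987 and 890.1 in the sORF7 control. Serpinh1, the collagen chaperone, had 695 ± 27.0, connective tissue growth factor (Ctgf) 658 ± 24.2, the calcification inhibitor Mgp 655 ± 57.6 and fibronectin (Fn1) 386 ± 49.8. Fn1, an 8212-nucleotide transcript, was highest in sORF6 control libraries 1 and 3 and lowest in library 2. Sparc, of medium length, had a CV of 2.01%.

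Markers of other heart cells set how far these levels can be given to muscle cells. In a bulk library, fewer cells of a type and less RNA per cell cannot be told apart. The 13 fibroblast markers summed to 1438 to 1616 FPKM, 0.309 ± 0.0197% of the total, but most of this was collagen, with Col1a1, Col3a1 (231 ± 11.1) and Col1a2 (223 ± 8.81). Markers that are more restricted to fibroblasts ranged widely, with Dcn at 76.8 ± 4.08, Ddr2 at 22.0 ± 1.91, Tcf21 at 11.2 ± 1.01, Pdgfra at 8.21 ± 0.895 and Fap at 1.15 ± 0.106 FPKM. The 13 markers of smooth muscle and pericytes held 0.451 ± 0.00997%, summing to 2145 to 2380 FPKM. Acta2 (smooth muscle actin, 1175 ± 51.4) and Tagln (573 ± 40.4), which fetal and cultured cardiomyocytes also express, made up most of it, before Cnn1 (223 ± 13.3) and Mcam (142 ± 5.48). By estimated counts the order turned, with 0.791% for the fibroblast and 0.370% for the smooth muscle and pericyte list. The smooth muscle myosin Myh11 had 10.4 to 13.6 and the pericyte marker Rgs5 1.18 ± 0.548 FPKM. What part of the matrix level, or of the Acta2, Tagln and Cnn1 levels, came from which cells was not tested.

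Markers of the remaining cell types had smaller summed levels. None of 15 endothelium markers reached 10 FPKM, and the list summed to 20.4 to 22.6 FPKM (0.00439 ± 0.000236%), with Kdr at 5.44 ± 0.392, Pecam1 at 0.998 ± 0.159 and Cldn5 at 0.00667 ± 0.0163. Of 19 leukocyte markers, 3 exceeded 10 FPKM: the lysozyme gene Lyz2 (25.2 ± 4.56), Adgre1, which encodes the macrophage antigen F4/80 (20.6 ± 2.75), and Fcer1g (17.7 ± 2.80). The list summed to 86.9 to 115 FPKM, or 0.0203 ± 0.00241%, and the pan-leukocyte marker Ptprc was at 1.59 ± 0.177. Epicardium markers (8 genes, 0.00472 ± 0.000353%), Schwann cell markers (10 genes, 0.00155 ± 0.000174%) and conduction system markers (6 genes, 0.00229 ± 0.000256%) were likewise at small shares. In this order, 5, 3 and 3 of them had a mean of at least 1 FPKM, with Hcn4 of the conduction list at 8.20 ± 0.983. Wt1 was at 0.855 ± 0.101, Sox10 at 0.0700 ± 0.0603 and Isl1 at 0.0917 ± 0.0752 FPKM. Of 4 adipocyte markers, 3 were listed at 0 in all 6 libraries. Erythroid genes summed to 2.91 to 19.2 FPKM, and their share had a CV of 55.7%: the alpha globin gene Hba2 ran from 1.16 in the third sORF6 control library to 10.6 in the third sORF7 control library.

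Among chamber genes, the light chains were mostly those of the ventricle. The ventricular light chains Myl2 and Myl3 outweighed the atrial Myl7 (106 ± 12.1 FPKM) and Myl4 (259 ± 20.5), at 95.8 ± 0.157% and 93.1 ± 0.192% of their pairs. Ventricular Irx4 and Hey2, both transcription factors, had 9.90 ± 0.614 and 6.73 ± 0.597. Of the 11 atrial markers, 3 exceeded 10 FPKM, and Nppa, which ventricular cells also make around birth and in hypertrophy, gave nearly all of the list's 1.10 ± 0.0830%. Atrial Kcna5 and Bmp10 were at 0.010 ± 0.0155 and 0.0550 ± 0.0539.

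Receptors for the agonist stood below 20 FPKM. Of the 6 listed genes for entry of the virus, 4 stood above 50 FPKM and the rest below 10. The alpha-1A receptor, Adra1a, stood at 19.4, 15.4 and 19.0 FPKM in the sORF6 control and 18.2, 14.5 and 12.5 in the sORF7 control, with Adra1b at 5.59 to 8.51 and Adra1d at 1.75 ± 0.362. The beta-1 receptor Adrb1 had 11.2 ± 0.584. The highest of that list of 20 was the endothelin receptor Ednra at 25.05 ± 0.693, followed by the kinase Grk2 (24.6 ± 0.610), the G protein gene Gna11 (22.3 ± 0.780) and protein kinase C alpha, Prkca (21.5 ± 2.27). Cxadr, the coxsackievirus and adenovirus receptor, was at 57.0 ± 1.85 FPKM, 54.6 to 59.6 over the libraries. Integrins that adenovirus uses to enter were at 601 ± 25.5 (Itgb1), 101 ± 2.57 (Itgb5) and 52.0 ± 3.78 (Itgav).

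Cardiac transcription factors were led by Tbx20 (149.8 ± 16.7 FPKM), Gata4 (125 ± 4.56), Nkx2-5 (114 ± 9.57) and Mef2a (79.4 ± 6.19), and the 22 genes together took 0.192 ± 0.0108% of the total. All 22 had at least 1 FPKM, and 15 at least 10. Of 1232 genes that the table assigns to a transcription factor family, 813 had at least 1 FPKM, 352 at least 10 and 13 at least 100, so Tbx20, Gata4 and Nkx2-5 were among the 13. Serum response factor (Srf), known to bind CArG boxes, had 62.9 ± 3.42 FPKM, and Tead1, known to bind CATTCC, 76.0 ± 6.27. Whether they bind the matches marked in the promoters above was not tested.

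Inflammatory genes and interferon-stimulated genes, which cells switch on after sensing virus or interferon, differed in spread. The chemokine and inflammation list took 0.122 ± 0.00527%, most of it Lcn2, the iron-binding lipocalin, at 337 ± 31.2 FPKM. Ccl2 (74.6 ± 4.56), Cx3cl1 (34.3 ± 1.24) and Icam1 (32.0 ± 1.15) came next, while Il6 was at 0.540 ± 0.224. The 33 interferon-stimulated genes summed to 585 to 970.2 FPKM, and their share had a CV of 18.9%, against 3.33% for the thin filament. Among them is Mx2, an antiviral GTPase (chromosome 11, 38034791 to 38066185). It was at 84.5, 48.9 and 67.3 FPKM in the sORF6 control and at 117, 91.2 and 96.1 in the sORF7 control. Between these groups 0 genes of the list were called, the smallest edgeR adjusted p being 0.141, beside 1 of all 14870 genes tested. Of the 33 members tested, 32 were higher in the sORF7 control, so the missing calls do not show equal levels. Ifi27 (178 ± 24.8) and Irf7 (47.5 ± 11.9) were also among the leading members.

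Related genes were compared in 43 pairs. In 13 of them the ratio varied less between libraries than either gene did. The table gives 1 value per gene, so isoforms of 1 gene, such as the 28 transcripts listed for Tpm1, cannot be separated, and ratios are between genes. Among actins, Actc1 held 91.7 ± 0.275% of its sum with Acta1, that is 11.0 ± 0.390 times its level, and 92.8 ± 0.349% of its sum with Acta2. The ratio of Actc1 to Acta1 had a CV of 3.54%, while the genes alone had CVs of 6.95% and 7.02%. These coding sequences are close, and reads shared between them could have been divided differently.

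Myosin heavy chain was mainly of the beta form. Myh6, alpha myosin heavy chain, was at 1235, 948 and 1146 FPKM in the sORF6 control and 993, 1137 and 1082 in the sORF7 control. Myh7 was at 2374, 1910.1 and 2275 against 1965, 2095 and 1886. Myh6 thus held 34.2, 33.2 and 33.5% of the pair in the sORF6 control and 33.6, 35.2 and 36.5% in the sORF7 control. Myh7 was the higher gene in all 6 libraries, 1.91 times Myh6 on average. In the deposited table the 2 genes overlap, with Myh7 at 33602416 to 33659093 and Myh6 at 33605653 to 33634249 of chromosome 15, so the division of reads between them is uncertain.

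Troponin I was split between its forms: cardiac Tnni3 held 62.0 ± 0.896% and fetal Tnni1 (766 ± 55.5 FPKM) the rest, with 60.6 to 63.2% over the libraries. The other troponins were nearly pure, Tnnt2 at 99.8% with Tnnt1 and 99.9% with Tnnt3, and Tnnc1 at 99.9% with Tnnc2. Tpm1 held 94.8 ± 0.302% with Tpm2, Atp2a2 99.9% with Atp2a1, Actn2 82.0 ± 0.955% with the non-muscle Actn1, and Myoz2 99.9% with Myoz1. Casq2 was 77.4 ± 1.08% of its sum with Casq1, the skeletal calsequestrin, which had 146 ± 7.32 FPKM. Ryr2 held 95.5 ± 0.138% with Ryr3, Gja1 93.8 ± 0.303% with Gja5, and Fhl2 only 15.1 ± 0.427% with Fhl1.

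Metabolic families were mixed. Among cytochrome c oxidase subunits, the muscle form Cox6a2 held 73.3 ± 1.13% with Cox6a1, but Cox8b held 11.1 ± 0.855% with Cox8a, and Cox7a1, the muscle form that appears late in development, 0.238 ± 0.0590% with Cox7a2. Cox4i1 held 99.7% with Cox4i2. Muscle creatine kinase Ckm was 65.9 ± 0.906% with the brain form Ckb. Lactate dehydrogenase B, the heart form, was 39.8 ± 1.10% with Ldha, and the insulin-responsive glucose transporter Slc2a4 28.4 ± 1.52% with Slc2a1. Cpt1b, the muscle gate of fatty acid entry, held 72.7 ± 0.848% with Cpt1a, Pfkm 59.8 ± 0.795% with Pfkl and Slc25a4 66.3 ± 0.979% with Slc25a5. Hexokinase 2, an adult muscle form, held 6.28 ± 0.362% with Hk1, Eno3 10.1 ± 0.570% with Eno1 and Pgam2 5.38 ± 0.725% with Pgam1. Fabp3 held 99.6 ± 0.119% with Fabp4. In translation, Eef1a2 held 10.3 ± 0.349% with Eef1a1, and the muscle-specific Rpl3l 0.0109 ± 0.0109% with Rpl3.

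Receptor and channel pairs at low levels had wider shares. Adra1a held 65.6 to 76.5% with Adra1b, Kcnj2 58.5 to 65.0% with Kcnj12 and Hcn2 29.7 to 35.9% with Hcn4. Among collagens, Col1a1 held 80.3 ± 0.932% with Col1a2, Col3a1 20.3 ± 0.847% with Col1a1, and Col4a1, whose protein joins that of Col4a2 in basement membranes, 51.7 ± 0.422% with Col4a2. The last pair had a ratio of 1.07 ± 0.0182, with a CV of 1.70%. Col4a1 and Col4a2 each had a CV above 4%.

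**Figure D3:**
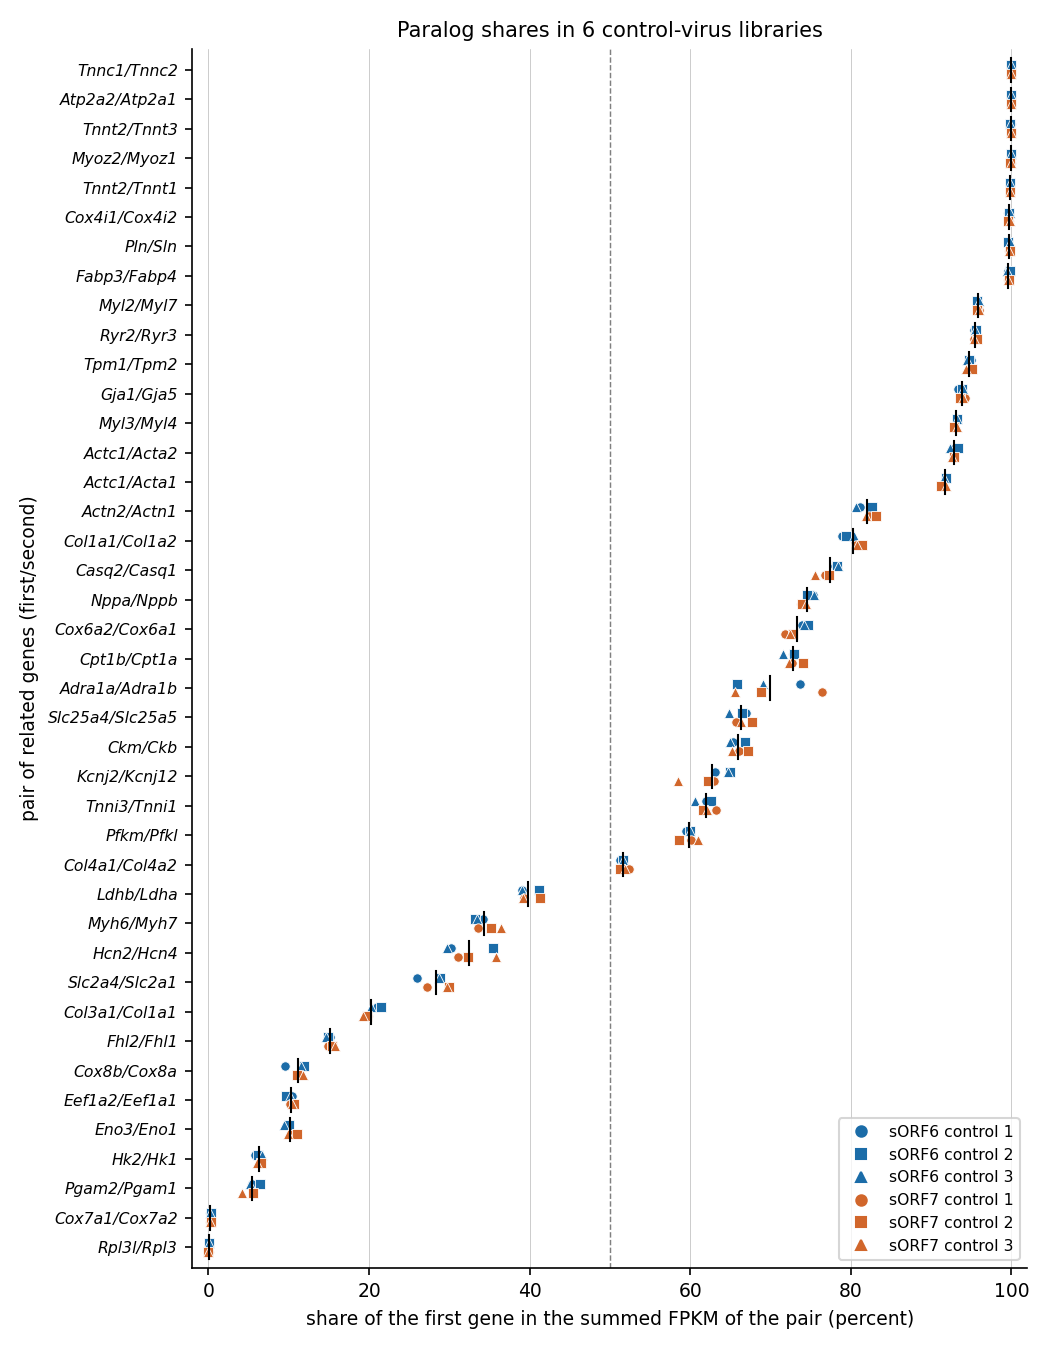
Share of the first gene in the summed FPKM of each of 41 of the 43 pairs of related genes (percent), for the 6 control-virus libraries; the dashed line is at 50 and black bars are means over 6. Symbols of most pairs fall together, Myh6/Myh7 between 33.2 and 36.5%, and Adra1a/Adra1b scatters from 65.6 to 76.5%.

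The spread between libraries was set against counting error. The median gene of at least 1 FPKM had a CV of 7.51% over the 6 libraries, being 10.6% for genes of 1 to 10 FPKM, 5.90% for 10 to 100, 5.25% for 100 to 1000 and 6.72% for the 42 genes above. Counting error alone would give medians of 7.31%, 3.17%, 1.38% and 0.658% in these classes. The observed spread thus exceeded counting error most among the abundant genes. Over all 12318 genes, 2875 had a CV under 5%. Pearson's r between libraries on log2(FPKM + 1) was 0.9895 to 0.9929 over these genes, a description across genes and not independent replicates. The steadiest genes of at least 10 FPKM were Rac1, a small GTPase of the cytoskeleton, at 253 to 258 FPKM (CV 0.690%), Ncaph2 (0.894%), Trim35 (0.910%) and Eml2 (0.942%). Urgcp, Traf4, Tor1aip2, Clic1, Esyt1 and Zfp36l1 completed the 10, with CVs up to 1.18%. Each of these 10 CVs lies below the counting error at the gene's own level, so they do not rank the genes among themselves.

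**Figure D4:**
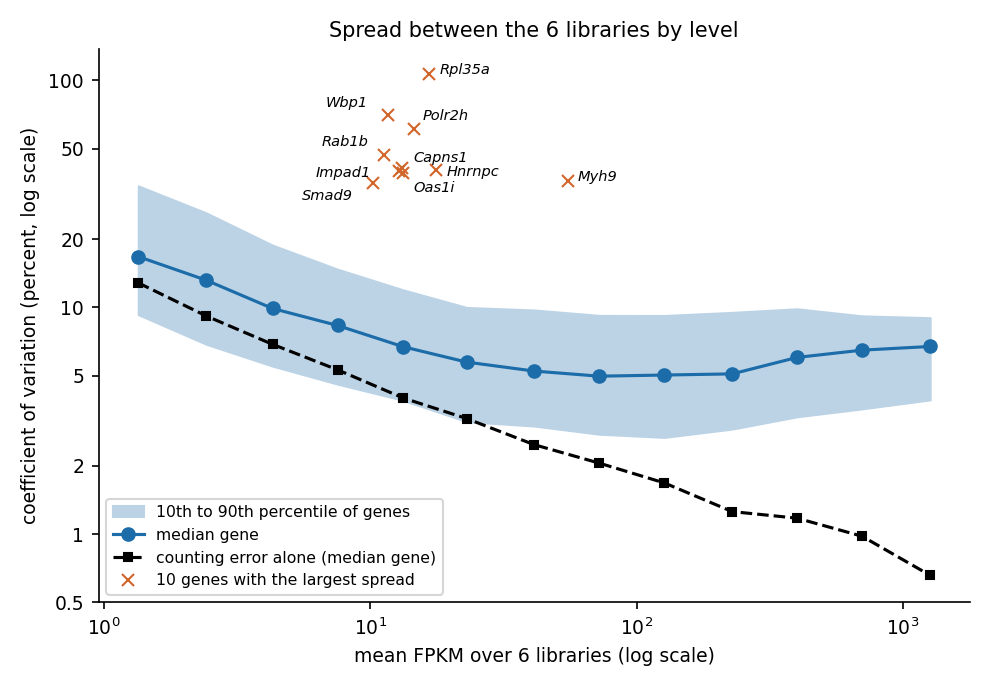
Coefficient of variation of FPKM over the 6 control-virus libraries (percent, log axis) against mean FPKM (log axis); the line is the median gene, the band the 10th to 90th percentile, the dashed line the counting error, and crosses the 10 genes of at least 10 FPKM with the largest spread. The median falls to near 5% at about 100 FPKM and is 6.72% at the highest levels, while the counting error goes on to 0.658%, and Rpl35a lies at 106%.

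Of the 10 genes of at least 10 FPKM with the largest spread, 7 had a second locus described as the same or a like product. The wording of the descriptions was not always the same. How the authors' counting divided reads between such loci was not tested. Rpl35a, a ribosomal protein gene (chromosome 12, 7186459 to 7186874), was listed at 13.4, 2.84 and 0 FPKM in the sORF6 control and at 6.66, 42.9 and 33.8 in the sORF7 control, a CV of 106%. Its 2 other loci, LOC100359498 and LOC108349682, had means of 253 and 199 and CVs of 14.5 and 22.8%, and the sum of the 3 had a CV of 13.9%. Polr2h, described as RNA polymerase II subunit H, ran from 0.910 to 24.4 FPKM. LOC100912534, described as like subunit RPABC3 of RNA polymerases I, II and III, was at 0 in the 2 libraries where Polr2h was highest. The CV was 61.2% for Polr2h alone and 12.3% for the sum. For Wbp1 the CV was 70.1% alone, 21.6% in the other locus and 7.96% in the sum. Chchd2, which is not among the 10, had 31.4, 20.8 and 9.82% in the same order. For Rab1b the values were 47.0, 12.2 and 7.09%. Capns1 (41.2%) and Hnrnpc (40.4%) were small beside their other loci, which had CVs of 6.96 and 6.87%, so that the CVs of their sums, 5.74 and 5.59%, follow those loci. The same holds for Rpl35a.

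Myh9, non-muscle myosin heavy chain, is a case among abundant genes. It was at 77.4, 28.8 and 79.9 FPKM in the sORF6 control and 49.3, 48.4 and 46.8 in the sORF7 control, with a CV of 35.9%. Myh9l1, a locus inside the interval of Myh9 in the deposited table (chromosome 7, 118740005 to 118807092), was at 90.9 in the second sORF6 control library and 71.9 to 75.3 in the other 2. In the sORF7 control it was at 91.8, 95.3 and 89.9, near its sORF6 maximum, although Myh9 was not as low there. The sum had a CV of 8.60%. Rab1b and its second locus overlap in the same way. The families were chosen after their values were seen. Over all 6700 genes of at least 10 FPKM, 44 had a CV above 25%. They were 14 of the 259 whose description matches another gene's in wording, small differences aside, and 30 of the 6441 others. Polr2h, Rab1b, Hnrnpc, Myh9 and Chchd2 are worded differently from the loci set beside them above. These counts thus do not separate genes with a second locus from the rest. Summed over shared descriptions, 1 of 173 sums was above 25%. The other genes of the 10 were Impad1 (CV 40.1%, 7.27 to 20.9 FPKM), Oas1i (38.9%), which has close Oas1 paralogs, and Smad9 (35.3%); none of them was summed with another locus.

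**Figure D5:**
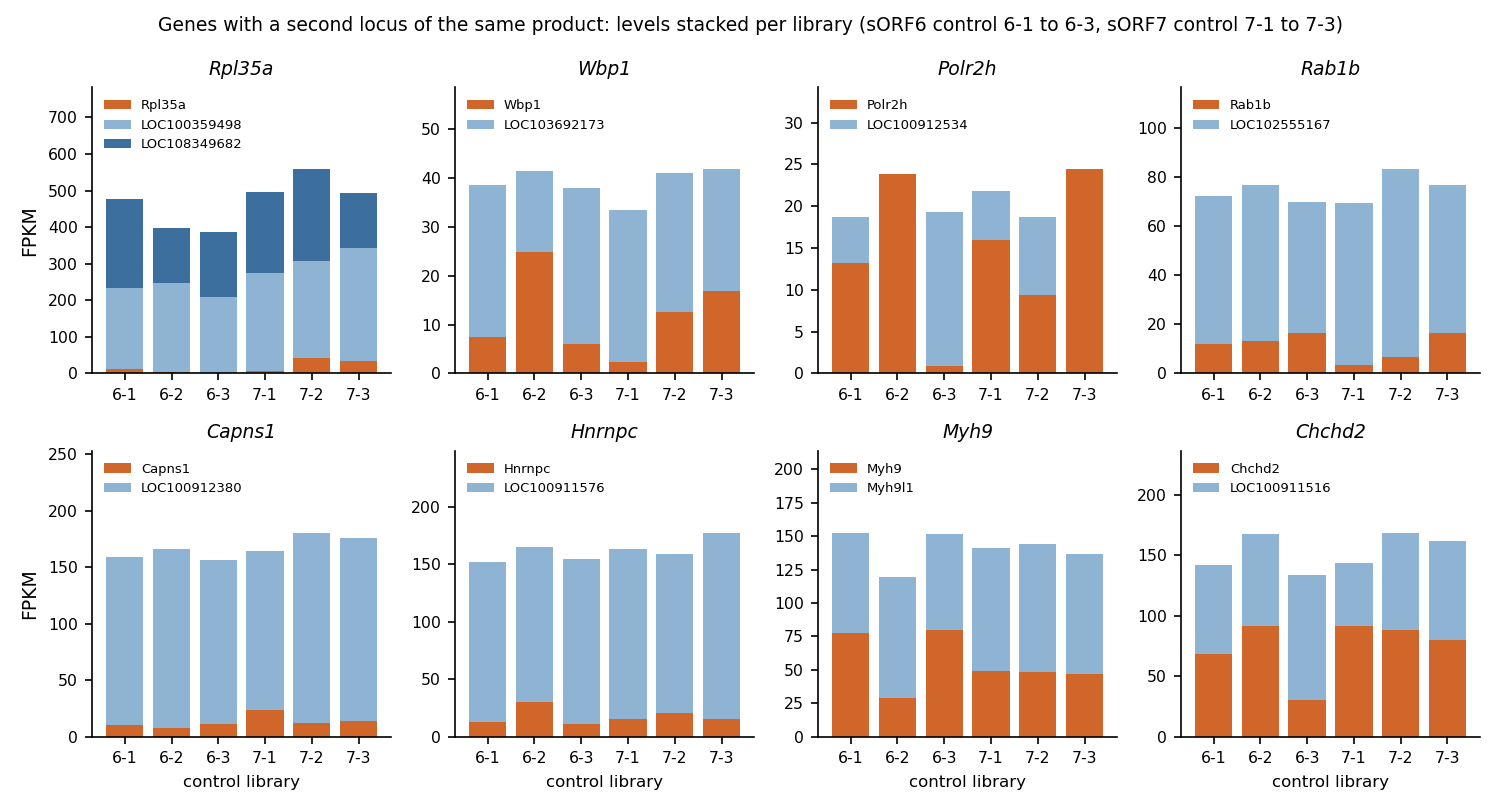
FPKM of 8 genes (orange) and of other loci described as the same or a like product (blue), stacked per library. Libraries are 6-1 to 6-3 for the sORF6 control and 7-1 to 7-3 for the sORF7 control. The orange part changes between libraries, as for Polr2h from 0.910 to 24.4 FPKM, while the height of the whole bar changes less.

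Whether 1 set of levels can stand for both control groups was asked by comparing them over all genes. Of 14870 genes tested in a fit over all 18 libraries, 1 passed edgeR's quasi-likelihood test with Benjamini-Hochberg adjustment, 0.00672% of those tested, while 1247 had an unadjusted p under 0.05. The gene was Cdkn1a, which encodes the cell cycle inhibitor p21. It was at 120.9, 122 and 121 FPKM in the sORF6 control and at 137, 144 and 145 in the sORF7 control, with no overlap. On the log2 scale the sORF7 control was higher by 0.23 ± 0.03 (SE), and the edgeR adjusted p was 0.0387. Its edgeR adjusted p was 0.0664 without the filter on low counts and 0.620 in a fit of the 6 libraries alone. Without sORF6 control library 1 or 3 it was 0.0870 or 0.141, and without sORF7 control library 2 or 3 it was 0.140 or 0.345. Without the second sORF6 control library 67 genes were called, Cdkn1a among them. No gene of the 33 lists was called. In the interferon-stimulated list, 32 of 33 members tested were higher in the sORF7 control, with a median log2 fold change of 0.47, beside 7591 of 14870 and a median of 0.00262 for all genes. Other lists leaned the same way, by less: ribosomal proteins in 77 of 90 members at a median of 0.06, and the respiratory chain in 70 of 83 at 0.05 on the log2 scale. Of the 3 libraries with the short mean length, 2 are of the sORF7 control, and the part of length in these counts was not tested. Cxcl10, a chemokine that interferon induces, was at 16.3, 13.4 and 16.8 FPKM in the sORF6 control and 25.4, 26.3 and 22.8 in the sORF7 control, with an edgeR adjusted p of 0.141. Usp18, an interferon-induced protease, gave 42.6, 28.7 and 31.8 against 57.8, 46.3 and 54.4. Leukocyte markers had the opposite sign in 13 of 14 members tested, with a median of -0.25 on the log2 scale, and 0 called.

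The 3 libraries of the sORF8 control, which had the same PE treatment and are not among the 6, differed in level in ways that were not tested here. Their contractile genes took 8.14 to 8.18% of the FPKM total, against 11.1 to 11.96%, and mitochondrial genes 5.06 to 5.15% against 6.41 to 6.95%. Ribosomal proteins took 12.9 to 13.0% there, and interferon-stimulated genes 0.0527 to 0.0622%. Myh6 held 25.6 to 26.2% of its sum with Myh7, Ldhb 23.9 to 24.5% of its sum with Ldha, and Ckm 51.3 to 55.3% of its sum with Ckb. Actc1 was at 10091 to 10239.5 FPKM. The matrix share, at 2.01 to 2.05%, lay within the range of the 6 libraries.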

How the data were processed

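Libraries from total RNA were read on a BGIseq machine, per the labels. The authors deposited 1 table of 19880 genes with estimated counts and FPKM per library. Tools named, per the submitters' processing notes, are HISAT2 2.0.4, RSEM 1.2.12 and DESeq2 1.4.5, without roles, with build Rnor_6.0. Of the strand setting, the sources used here say nothing. The log2 fold changes and p-values in the deposited table were not used.

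From the FPKM, the shares of lists and pairs and the CVs were computed per library, with the mean and SD over 6. Effective length was derived from count, FPKM and column total. Estimated counts were rounded for edgeR 4.0.16 (R 4.3.3, limma 3.58.1): filterByExpr, TMM, a quasi-likelihood fit of 6 groups over 18 libraries (12 residual degrees of freedom), two-sided, adjusted by Benjamini-Hochberg, called at 0.05. The common biological coefficient of variation was 6.90% over the 18 libraries and 8.47% over the 6 alone. The fit was tested on counts simulated with a biological coefficient of variation of 6.90% for every gene. It recovered 54% of 1.25-fold, 74% of 1.5-fold and 92% of 2-fold changes, and called 11 of 14442 unchanged genes. Genes of wider spread were not simulated, so differences between the control groups can be missed. Alternatives were DESeq2 1.42.0, limma on log2(FPKM + 1) or log2(FPKM + 0.1), RLE factors, no filter, the 6 libraries alone, replicate numbers as a block, leaving out libraries, counts for FPKM, and medians.

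Members, lists, pairs and rules were chosen with earlier results of these data known. Named were the 25 most abundant genes, the 4 highest of each list, the genes of all pairs, the 10 largest and 10 smallest CVs from 10 FPKM on, and called genes; a few of these are not reported here. Other members of lists, the families of loci and genes called in alternatives were named after their values were seen. Groups and replicate numbers come from the titles, and each of the per-library columns matched a sample. Genomic positions are those of the deposited table, promoters those of RefSeq on GRCr8, matched by gene ID. The table holds 5 symbols carried by 2 genes each. Depth was 17299568 to 17658137 counts. P-values set the group difference against the spread between libraries, which may be technical.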

Additional observations from a re-analysis of the deposited data

Results flagged for a closer look

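Within the 6 libraries, 2 pair shares had a single library standing apart from the others. Cox8b, a muscle subunit of cytochrome c oxidase, held 9.4964% of its sum with Cox8a in the first sORF6 control library, against 10.969 to 11.838% in the other 5. Myoz2, which binds calcineurin at the Z-disc, held 99.817% of its sum with Myoz1 in the second sORF7 control library, against 99.896 to 99.934%. The second rests on Myoz1 at 0.463 ± 0.236 FPKM. Chance sets about 1 in 20 such groups apart, and 43 pairs and the lists were looked at.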

How the results depend on the processing

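The number of genes that differed between the control groups depended on the method. It was 1 with edgeR, 35 with DESeq2 (20 higher in the sORF7 control, 15 lower), 2 with limma on log2(FPKM + 1) and 2 on log2(FPKM + 0.1). RLE factors gave 1, no filter on low counts 0 (1394 genes at an unadjusted p under 0.05) and the 6 libraries alone 0 (660 genes). The replicate block in the fit of the 6 libraries gave 4. Deviations from the group mean correlated at -0.09 to -0.03 between same-numbered libraries and at -0.09 to 0.14 between the others. With 3 libraries a group, these values cannot decide whether the numbers pair libraries. Leaving out 1 library gave 0 to 67. Among the genes that DESeq2 called besides Cdkn1a were Cxcl10, B2m and Postn, and the block called Usp18.

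In place of FPKM, estimated counts weight genes by length and moved 23 of 24 list shares. As a percent of counts, the thin filament took 4.04, the thick filament 2.62 and the Z-disc, titin and M-band list 3.54. Calcium cycling took 1.12, fatty acid oxidation 0.315, glycolysis 1.08, the tricarboxylic acid cycle 0.679 and the phosphotransfer list 0.341. Matrix took 3.86, natriuretic peptides and growth markers 2.87, cardiac transcription factors 0.373, junctions and channels 0.628 and adenovirus receptors 0.334. Inflammation took 0.0714, the cell cycle 0.171 and markers of cardiomyocytes 3.06, fibroblasts 0.791, smooth muscle 0.370, atrium 0.433 and ventricle 0.461. The respiratory chain took 1.98, ribosomal proteins 3.31 and the mitochondrial ribosome 0.269. Pair shares by counts were 55.8% for Tnni3, 96.2% for Myl2, 93.9% for Myl3, 99.97% for Pln, 70.2% for Cox6a2, 0.648% for Cox7a1, 8.47% for Fhl2, 2.36% for Pgam2, 7.15% for Cox8b, 35.4% for Ldhb, 63.6% for Cpt1b, 67.97% for Slc25a4 and 11.4% for Eef1a2. Of all 43 pairs, 31 moved beyond their SD.

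The median CV was 7.29% in TMM-scaled CPM and 5.84% from 10 FPKM on. Leaving out 1 library gave 7.26 to 7.43%. Medians in place of means moved 0 of the share, pair and spread results, and leaving out a library moved 1 of 68, the median CV. Depth limits genes of 1 to 10 FPKM, where counting alone gives a CV of 7.31%.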

Other observations

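Beyond the cardiac factors, the most abundant genes that the table assigns to a transcription factor family were broadly expressed ones, chosen here after their values were seen. Ybx1, a Y-box protein that also binds messenger RNA, had 594 ± 27.7 FPKM (SD, n = 6), Nme2, a nucleoside diphosphate kinase, 543 ± 38.3, and Tsc22d1 380.5 ± 18.6. Atf4, the main transcription factor of the integrated stress response, followed at 307 ± 10.7 and the zinc finger protein Cnbp at 209 ± 6.31. Hmg1l1, annotated as like high-mobility group protein 1, had 156 ± 7.14. Tbx20 came next at 149.8 ± 16.7, ahead of Ybx3 at 135 ± 7.33.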
